A study of Mus musculus with 4 samples.

Results

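A set of 10 genes of apoptotic cell uptake was followed across 4 arrays of mouse bone marrow-derived dendritic cells (BMDC), namely Mfge8, Gas6, Axl, Mertk, Stab1, Itgav, Itgb5, C1qa, C1qb and C1qc. All 21 probe sets that the array annotation assigns to one of these symbols were used. The list was chosen with the signals of these arrays already known, and was selected on them in part, so the values below describe the genes and support no statement about why they were listed. The 10 genes stand among 18193 genes with a probe set of their own.

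Each of the 4 conditions had 1 biological sample and 1 array, from bone marrow of male C57BL/6 mice aged 6 to 8 weeks. All cells, the control included, received 500 U/ml of the cytokine GM-CSF for 7 days and were sorted on CD80, a costimulatory surface protein. In the live coculture BMDC were kept with 1D8 cells, a tumour line of the mouse ovarian surface epithelium, with 1 tumour cell for 5 BMDC, and in the irradiated coculture the 1D8 cells had first received 50 Gy. For the conditioned medium array the BMDC grew in medium of which 25% by volume was 1D8 supernatant, and the control BMDC had no contact with 1D8 cells or their medium. The labels do not say how long the exposure lasted or whether several mice were pooled.

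Apoptotic cells expose phosphatidylserine on their surface, and phagocytes bind it either directly or through soluble bridging proteins. Mfge8 encodes a secreted bridge from phosphatidylserine to the integrins that pair the alpha v chain (Itgav) with the beta 3 or beta 5 chain (Itgb5). Gas6 encodes a bridge to the receptor tyrosine kinases Tyro3, Axl and Mertk, called TAM receptors, which also dampen cytokine production in dendritic cells and macrophages. C1qa, C1qb and C1qc encode the 3 chains of C1q, the first component of classical complement, which also coats dying cells, and Stab1 encodes stabilin 1, a scavenger receptor that binds phosphatidylserine.

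Both bridging genes were at least 2-fold lower on all 3 treated arrays than in the control. Itgb5 was lower on all 3 as well, by less than 2-fold at its brightest probe set. The receptor gene Axl was higher, at least 2-fold in the conditioned medium only, and the C1q, Mertk and Stab1 genes differed little. Values are linear MAS5 signals, the output of the Affymetrix software that combines the probes of a set into 1 number. Signals under a floor of 44.3, the 50th percentile over all arrays, were set to the floor before a ratio was taken, and a gene was counted when 2 arrays differed at least 2-fold. Since no condition was replicated, no error or p-value could be given, and higher or lower describes these arrays only. The only spread at hand was that of log2 ratios among probe sets of the same gene, over 4092 genes with several. Its SD was 0.50 for the live coculture, 0.45 for the irradiated coculture and 0.45 for the conditioned medium against the control. It compares probe sets on the same arrays and holds no variation between cultures, mice or RNA preparations. In bulk RNA fewer cells of a type and less RNA per cell cannot be told apart.

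Each of the 10 genes exceeded the floor on all 4 arrays at its brightest probe set, as did 15 of their 21 probe sets. Of the 21, 4 lay at or under the floor on every array. In the live coculture 2 of the 10 genes were at least 2-fold lower than in the control and 0 were higher, where 2.23% of all genes were lower and 3.37% were higher. In the irradiated coculture 2 genes were lower and 0 higher, where 2.25% of all genes were lower and 3.48% higher. In the conditioned medium 2 genes were lower and 1 was higher, where 1.41% of all genes were lower and 2.30% higher. The lower pair was Mfge8 and Gas6 each time and the higher one was Axl. Since the same signals entered the choice of the list, nothing is read from these shares. The median log2 ratio of the 10 genes was -0.40, -0.16 and -0.19 in the live coculture, the irradiated coculture and the conditioned medium, against -0.04, -0.05 and 0.00 for all genes above the floor on both arrays. All 3 comparisons use the same control array and are therefore not independent of each other.

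**Figure D1:**
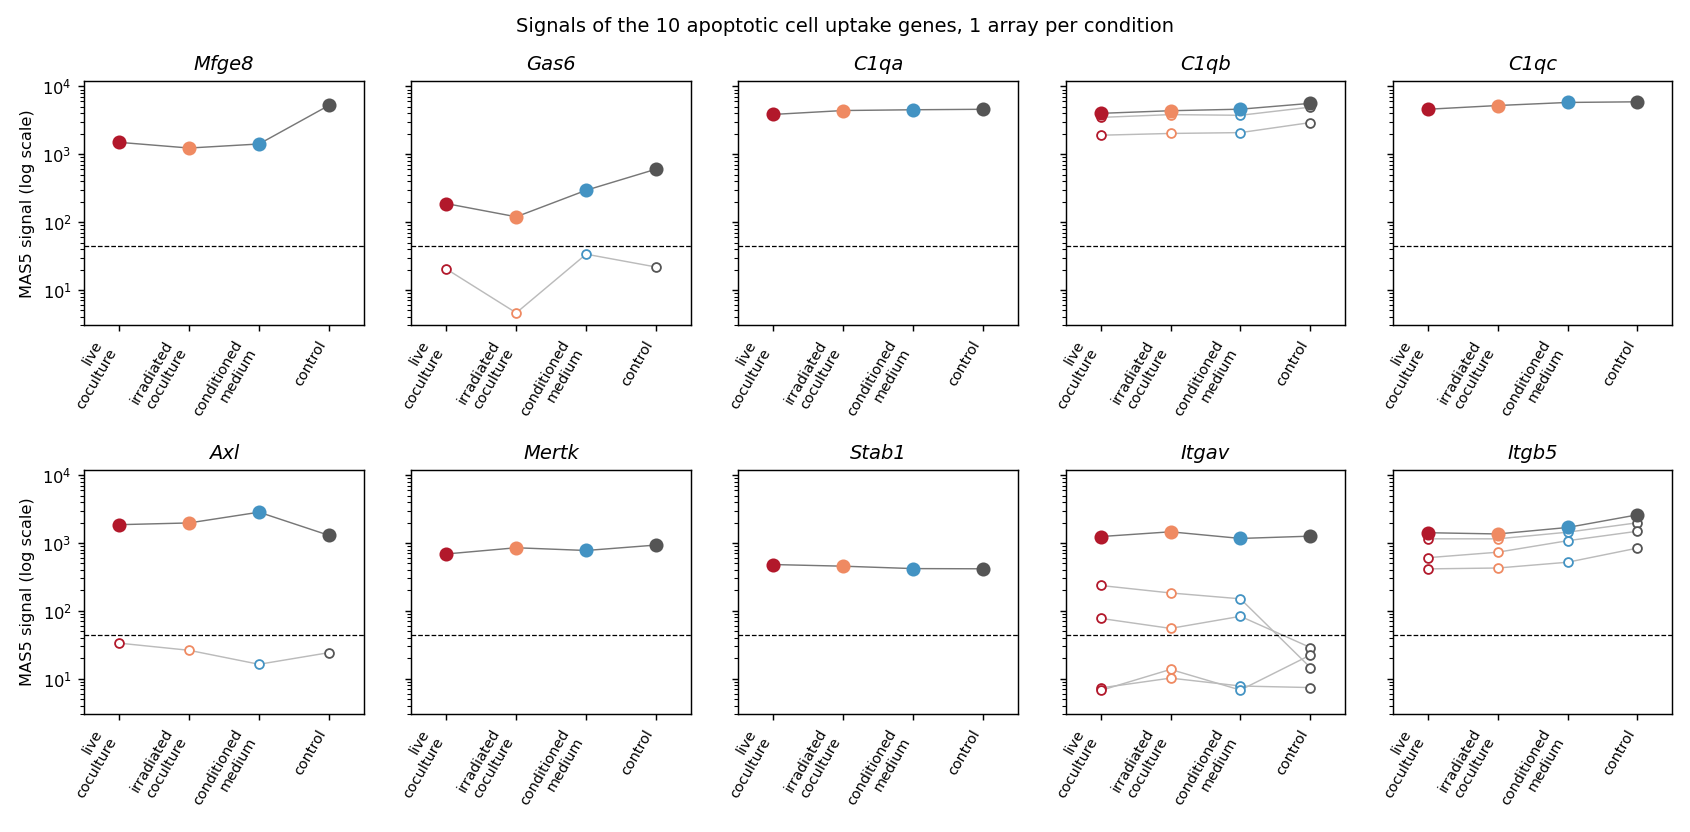
MAS5 signal (log scale) of every probe set of the 10 genes in the live coculture, the irradiated coculture, the conditioned medium and the control, 1 array each. Filled points are the brightest probe set of the gene, open points its other probe sets, lines join the values of 1 probe set and the dashed line is the floor of 44.3. Mfge8 lies between 1235.5 and 1499.5 on the treated arrays and at 5253.4 in the control.

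Promoters are shown for Mfge8, Gas6 and Itgb5, which were lower on all treated arrays, and for Axl, which was higher. Each is the RefSeq sequence (GRCm38.p6) from 250 bases before to 50 bases after the gene start, written 5′ to 3′ on the gene's strand. Of the 10 genes, 9 matched this table by symbol. The windows are chr7:79149011-79149310 (- strand) for Mfge8, chr8:13494486-13494785 (- strand) for Gas6, chr16:33829415-33829714 (+ strand) for Itgb5 and chr7:25788684-25788983 (- strand) for Axl, and capitals mark GC boxes, the letters GGGCGG on either strand.
Mfge8: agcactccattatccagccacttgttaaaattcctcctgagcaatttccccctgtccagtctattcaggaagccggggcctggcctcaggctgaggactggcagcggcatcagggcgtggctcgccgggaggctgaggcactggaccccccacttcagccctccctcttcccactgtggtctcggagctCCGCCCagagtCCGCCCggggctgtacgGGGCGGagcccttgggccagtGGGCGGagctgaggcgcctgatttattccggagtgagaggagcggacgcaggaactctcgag
Gas6: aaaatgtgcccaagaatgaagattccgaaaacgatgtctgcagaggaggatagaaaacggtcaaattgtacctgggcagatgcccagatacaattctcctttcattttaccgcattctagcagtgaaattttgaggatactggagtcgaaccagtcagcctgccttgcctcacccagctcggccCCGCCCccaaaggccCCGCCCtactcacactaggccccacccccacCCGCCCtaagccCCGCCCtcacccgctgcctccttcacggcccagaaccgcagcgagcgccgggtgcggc
Itgb5: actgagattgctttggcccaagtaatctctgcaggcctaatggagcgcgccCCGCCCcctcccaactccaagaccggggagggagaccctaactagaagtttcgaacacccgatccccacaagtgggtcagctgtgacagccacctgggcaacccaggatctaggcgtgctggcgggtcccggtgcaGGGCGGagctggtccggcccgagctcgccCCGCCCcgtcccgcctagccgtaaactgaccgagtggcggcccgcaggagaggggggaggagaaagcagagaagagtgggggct
Axl: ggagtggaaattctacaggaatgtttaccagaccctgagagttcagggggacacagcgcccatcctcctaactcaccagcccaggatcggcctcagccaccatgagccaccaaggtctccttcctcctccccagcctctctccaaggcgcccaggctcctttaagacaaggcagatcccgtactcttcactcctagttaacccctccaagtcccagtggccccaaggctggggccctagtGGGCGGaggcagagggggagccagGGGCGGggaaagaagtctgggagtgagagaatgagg

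GC boxes were found 4 times in the window of Mfge8, 4 times in that of Gas6, 3 times in that of Itgb5 and 2 times in that of Axl, and also 4 times in that of Mertk, which differed little. C1qc and Itgav had 1 match each and Stab1 and C1qb had 0. Of the 32851 promoters of this length, 35.7% held at least 1, so the motif is common and does not set the lower genes apart from Axl or Mertk. An AP-1 element (TGANTCA), a hypoxia element core (ACGTG) and a STAT element (TTCNNNGAA) had 0 matches on either strand in the 9 windows, where 7.81%, 19.6% and 8.30% of all promoters held them. An interferon element core (GAAANNGAA, 8.56% of all promoters) was found in the window of Itgav only. A match describes letters in a window and not a site in use.

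Mfge8 (probe set 1420911_a_at), with 4 GC boxes in its promoter window, had a signal of 1499.5 in the live coculture, 1235.5 with irradiated 1D8 cells and 1417.1 in the conditioned medium, against 5253.4 in the control. It was thus 3.50-fold lower with live 1D8 cells, 4.25-fold lower with irradiated 1D8 cells and 3.71-fold lower in the conditioned medium. The 3 treated arrays lay close together, since the widest ratio among them was 1.21-fold, and only the control stood apart. Among the 9847 genes above the floor on all arrays, Mfge8 ranked 31 from the lowest log2 ratio with live 1D8 cells, 26 with irradiated 1D8 cells and 10 in the conditioned medium. A single probe set measures the gene, so no second one could be compared with it, and its difference rests on 1 control array.

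Gas6 (1417399_at), also with 4 GC boxes, had a signal of 187.5 in the live coculture, 119.8 with irradiated 1D8 cells and 294.9 in the conditioned medium, against 603.8 in the control. This made it 3.22-fold lower with live 1D8 cells, 5.04-fold lower with irradiated 1D8 cells and 2.05-fold lower in the conditioned medium. Unlike the signals of Mfge8, those of Gas6 were spread over the treated arrays, with the conditioned medium between the control and the cocultures. Relative to the conditioned medium it was 1.57-fold lower with live and 2.46-fold lower with irradiated 1D8 cells, and these ratios do not use the control. The other probe set of Gas6 was under the floor on all 4 arrays, between 4.6 and 33.7, and carries no ratio.

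The chains of the alpha v beta 5 integrin, through which cells bind Mfge8, differed from each other in their pattern. Itgb5 (1456133_x_at) had a signal of 1416.7 in the live coculture, 1357.4 with irradiated 1D8 cells and 1691.0 in the conditioned medium, against 2600.1 in the control, at its brightest probe set. It was 1.84-fold, 1.92-fold and 1.54-fold lower there, under the 2-fold threshold. All 4 probe sets of Itgb5 were lower on every treated array. Their log2 ratios lay between -1.30 and -0.79 in the live coculture, between -1.03 and -0.79 in the irradiated coculture and between -0.69 and -0.46 in the conditioned medium. Of these probe sets, 2 were at least 2-fold lower in the live coculture (2.45-fold and 2.02-fold) and 1 in the irradiated coculture (2.04-fold), so the gene lies at the threshold in the cocultures.

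Itgav, the partner chain (1452784_at), had a signal of 1242.1 in the live coculture, 1460.5 with irradiated 1D8 cells and 1165.8 in the conditioned medium, against 1259.8 in the control, at its brightest probe set. The ratios there were 1.01-fold lower, 1.16-fold higher and 1.08-fold lower. A dimmer probe set, 1421198_at, had signals of 236.3, 183.4 and 150.3 on the same treated arrays and 14.6 in the control, which is under the floor. By that probe set Itgav was at least 5.33-fold higher in the live coculture, at least 4.14-fold higher with irradiated 1D8 cells and at least 3.39-fold higher in the conditioned medium. Another, 1432296_a_at, had signals of 77.4, 55.1 and 83.0 on the treated arrays and 28.8 in the control. The remaining pair was under the floor on all arrays. The probe sets of Itgav therefore disagree, and no direction is given for the gene.

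**Figure D2:**
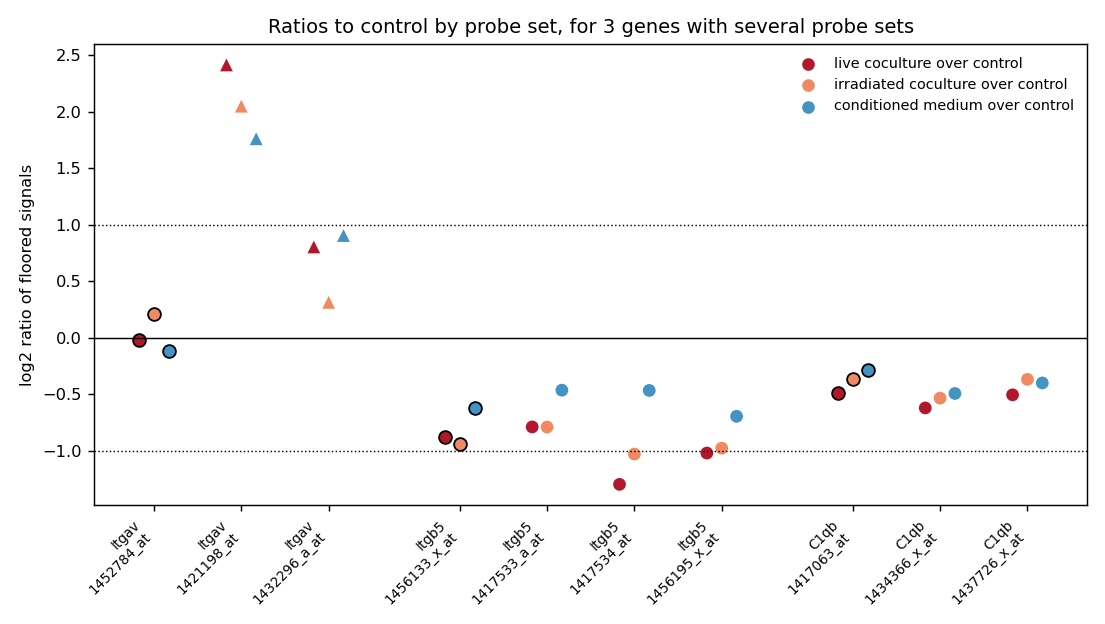
Log2 ratio to the control of each probe set of Itgav, Itgb5 and C1qb that exceeded the floor on at least 1 array. Circles exceeded the floor on all 4 arrays, triangles on fewer, a black edge marks the brightest probe set and dotted lines mark 2-fold. The 4 probe sets of Itgb5 lie below 0 in every comparison, while those of Itgav range up to 2.42.

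The TAM receptor genes differed from Gas6 in their ratios to the control. Axl (1423586_at), with 2 GC boxes, had a signal of 1860.0 in the live coculture, 1973.0 with irradiated 1D8 cells and 2841.7 in the conditioned medium, against 1295.2 in the control. It was 1.44-fold higher in the live coculture and 1.52-fold higher in the irradiated coculture, both under the threshold, and 2.19-fold higher in the conditioned medium. Between the treated arrays Axl was 1.53-fold lower in the live coculture and 1.44-fold lower with irradiated 1D8 cells than in the conditioned medium. Its second probe set was under the floor on all 4 arrays, between 16.3 and 33.4. Among the treated arrays Axl and Gas6 thus both had their highest signal in the conditioned medium. Against the control array Axl was higher and Gas6 lower on all of them.

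Mertk (1422869_at) had a signal of 688.6 in the live coculture, 850.2 with irradiated 1D8 cells and 774.7 in the conditioned medium, against 931.6 in the control. It was 1.35-fold, 1.10-fold and 1.20-fold lower on the treated arrays, less than 1 SD between probe sets in each case. Tyro3, the other TAM receptor gene, was under the floor on all 4 arrays, with signals from 10.9 to 20.2. Pros1, which encodes protein S, another TAM ligand, had signals of 76.9, 66.3 and 102.0 on the treated arrays and 117.0 in the control and was not 2-fold apart in any comparison with the control. Tyro3 and Pros1 were picked for mention after their values were seen, to complete the receptor family.

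The genes of the 3 C1q chains differed from the control by at most 1.4-fold at their brightest probe sets. C1qa (1417381_at) had a signal of 3864.5 in the live coculture, 4411.6 with irradiated 1D8 cells and 4527.1 in the conditioned medium, against 4601.4 in the control. C1qb (1417063_at) had 4007.8, 4380.6 and 4615.6 on these treated arrays and 5628.6 in the control. C1qc (1449401_at) had 4605.2, 5227.4 and 5802.5 on them and 5929.7 in the control. At these probe sets all 3 chains ran in the same order, lowest in the live coculture, then the irradiated coculture, then the conditioned medium, and highest in the control, although steps between neighbours were smaller than 1 SD between probe sets. The 2 other probe sets of C1qb gave 1.54-fold and 1.42-fold lower in the live coculture, 1.45-fold and 1.29-fold lower with irradiated 1D8 cells and 1.41-fold and 1.32-fold lower in the conditioned medium. At 1437726_x_at the order differed, at 3840.8 with irradiated 1D8 cells and 3754.2 in the conditioned medium. In the RefSeq gene table C1qb, C1qc and C1qa follow one another on chromosome 4 with no other protein-coding gene between them.

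Stab1 (1450199_a_at) had a signal of 480.9 in the live coculture, 454.7 with irradiated 1D8 cells and 419.1 in the conditioned medium, against 416.2 in the control. Its largest difference from the control was 1.16-fold, in the live coculture. With Mertk, Itgav and the C1q chains it made up the 6 genes that stayed within 0.5 of the control on the log2 scale at their brightest probe sets.

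**Figure D3:**
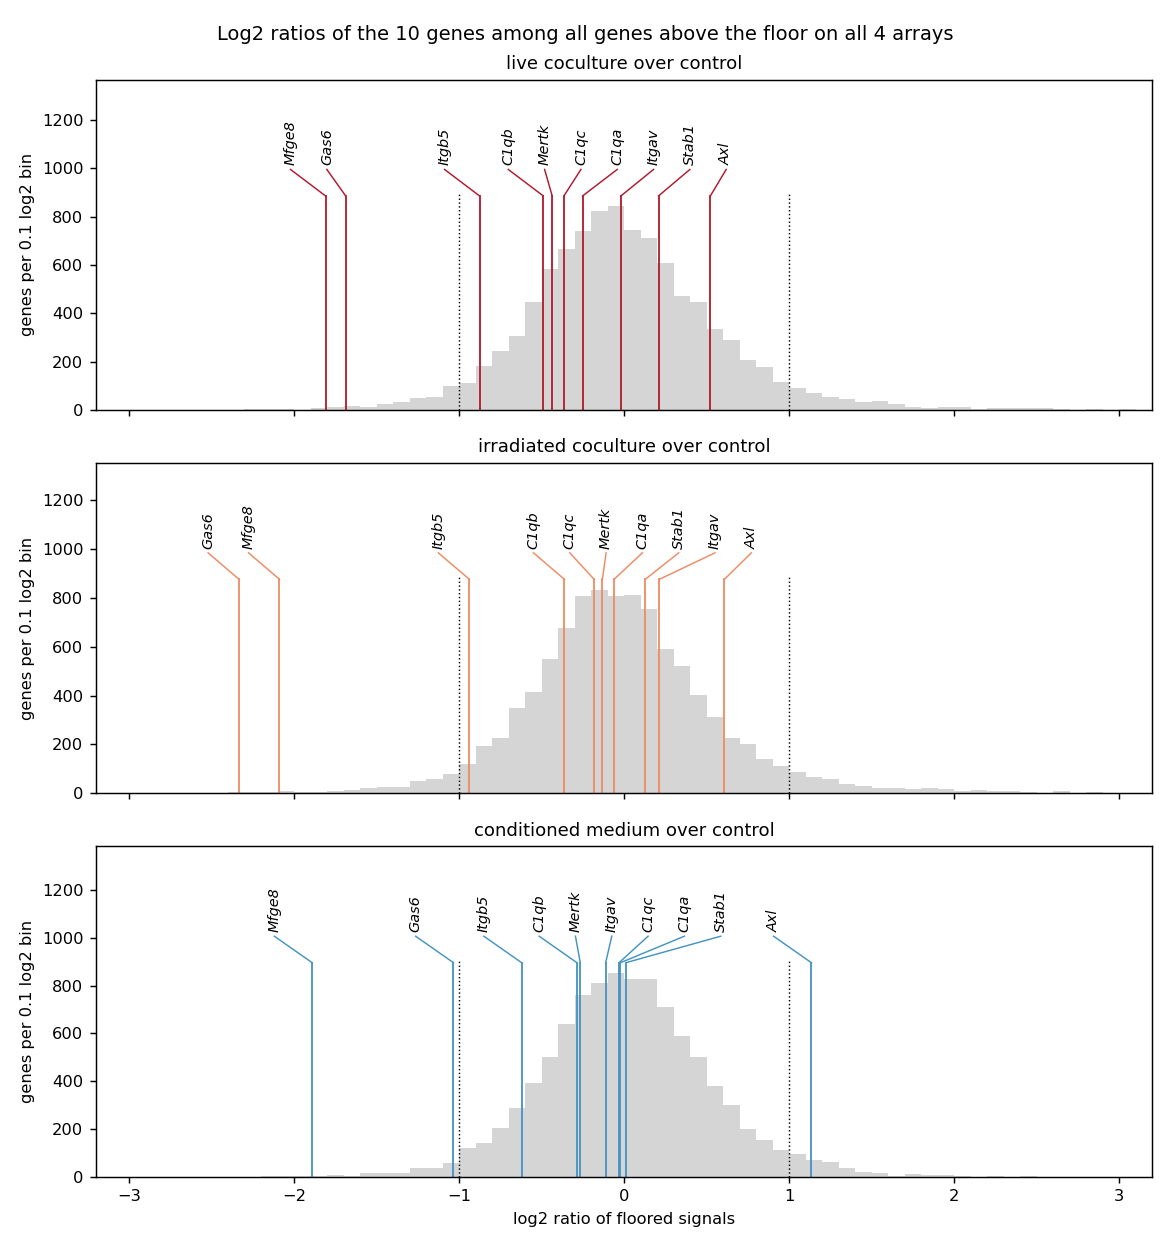
Distribution of log2 ratios to the control (grey bars, genes per bin of 0.1) for the 9847 genes above the floor on all 4 arrays, with a coloured line for each of the 10 genes at its brightest probe set. Dotted lines mark 2-fold. Mfge8 and Gas6 lie left of the dotted line in all 3 panels and Axl lies right of it in the conditioned medium panel only.

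Comparisons between treated arrays do not use the control. None of the 10 genes was 2-fold apart between the irradiated and the live coculture, where 0.671% of all genes were, and none between the live coculture and the conditioned medium, where 2.90% of all genes were. Gas6 alone was 2-fold apart between the irradiated coculture and the conditioned medium, where 3.19% of all genes were. The log2 ratios of the 10 genes spanned -0.65 to 0.30 for the irradiated over the live coculture, -0.65 to 0.20 for the live coculture over the conditioned medium and -1.30 to 0.33 for the irradiated coculture over the conditioned medium.

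The genes most like Gas6, Mfge8 and Axl were sought among the 9847 genes above the floor on all arrays, by the Euclidean distance of their 3 log2 ratios to the control. These 3 members had the widest range over the arrays, 2.33, 2.09 and 1.13 on the log2 scale. Nearest to Mfge8 were Gpr137b, a lysosomal membrane protein gene (distance 0.06), Fstl1, a secreted glycoprotein gene (0.10), and Slamf8, a receptor gene of myeloid cells (0.18). Fstl1 was 3.68-fold lower with live 1D8 cells, 4.39-fold lower with irradiated 1D8 cells and 3.85-fold lower in the conditioned medium, and a further Fstl1 probe set gave log2 ratios of -1.76, -1.89 and -1.99. The other probe sets of Gpr137b ranged from -1.02 to 0.41 in the live coculture and so differ from the one that matched.

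Nearest to Gas6 were Igf1, the insulin-like growth factor 1 gene (distance 0.14), Blnk, an adaptor gene of antigen receptor signalling (0.24), and Cd180, a Toll-like receptor homologue gene (0.35). Igf1 had signals of 193.4, 123.8 and 319.3 on the treated arrays and 600.9 in the control. Its 3 other probe sets above the floor were lower on all treated arrays as well, by log2 ratios from -3.04 to -0.90. Nearest to Axl were Pgap2 (0.11), Sp100, a nuclear body gene (0.12), and H3c7, a histone gene (0.13). The likeness rests on 3 ratios that share the control array, and other probe sets of Pgap2 and Sp100 had log2 ratios from -0.58 to 0.44, so for these genes it holds for 1 probe set.

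Of 107 other genes of apoptotic cell uptake in 8 lists, 101 were measured by a probe set of their own and 78 exceeded the floor on all 4 arrays. In the live coculture 8 were at least 2-fold higher and 3 lower than in the control, in the irradiated coculture 9 were higher and 2 lower, and in the conditioned medium 1 was higher and 0 lower. As shares of the 101 these are read against 3.37% of all genes higher and 2.23% lower in the live coculture, 3.48% and 2.25% in the irradiated coculture, and 2.30% and 1.41% in the conditioned medium. The 2 sets are unlike, since 78 of the 101 but only 9847 of all 18193 genes exceeded the floor on all arrays. A gene under the floor on both arrays cannot be called, so the shares of all genes are a low reference for the 101. The median log2 ratio of the 101 genes was 0.00 in all 3 comparisons. A gene at or under the floor on both arrays has a ratio of 0 by construction, and 12 of the 101 were so on all arrays. This median is therefore not read as an absence of difference. In both cocultures the same 7 genes were higher (C1s1, Cd14, Itgam, S1pr1, Socs3, Tgm2 and Thbs1) and the same 2 were lower (Itgb3 and Sirpa). These calls are for the brightest probe set of each gene. C1s1 and Itgb3 were no longer apart in either coculture at a floor of 155.6, nor S1pr1 and Msr1 in the live coculture with median centring.

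Among other bridging molecules 2 of 10 were higher in the live coculture and 3 of 10 in the irradiated coculture, and 0 were lower. Beside this and the later list counts stand the shares of all genes, 3.37% higher and 2.23% lower in the live coculture. The shares were 3.48% and 2.25% in the irradiated coculture and 2.30% and 1.41% in the conditioned medium. In lists this short, single calls are not read as a result for the list. Thbs1, which encodes thrombospondin 1, a bridge from dying cells to the alpha v beta 3 integrin and CD36, had signals of 7282.3 in the live coculture, 8338.3 with irradiated 1D8 cells and 4457.5 in the conditioned medium, against 2296.3 in the control (3.17-fold, 3.63-fold and 1.94-fold higher). Tgm2, the tissue transglutaminase that aids the integrin in uptake, was 3.03-fold higher in the live coculture and 3.30-fold higher with irradiated 1D8 cells, and 1.30-fold lower in the conditioned medium. Fn1, the fibronectin gene, was 1.86-fold higher with live and 2.16-fold higher with irradiated 1D8 cells and 1.85-fold higher in the conditioned medium, and its other probe set gave log2 ratios of 3.45, 3.43 and 1.54. The other members of the list did not reach 2-fold, and some were lower on all treated arrays. Pros1 had log2 ratios of -0.61, -0.82 and -0.20, and Anxa1 and Anxa5, genes of phospholipid-binding annexins, had -0.78, -0.77 and -0.57, and -0.61, -0.82 and -0.59. The median log2 ratio of the list was 0.15 in the live and 0.00 in the irradiated coculture. Both medians fall on genes under the floor in the control, so they do not measure a shift of the list.

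Of 16 other receptors 2 were higher in the live coculture and 1 in the irradiated coculture, with 0 lower. Cd14, a receptor for lipopolysaccharide that also tethers apoptotic cells, was 2.49-fold and 3.46-fold higher in the live and the irradiated coculture and 1.02-fold higher in the conditioned medium. Msr1, the class A scavenger receptor, was 2.03-fold higher with live and 1.71-fold higher with irradiated 1D8 cells and 1.68-fold higher in the conditioned medium, and its 3 other probe sets above the floor disagreed, with log2 ratios from -0.06 to 2.00. Of 11 other integrin chains 1 was higher and 1 lower in each coculture. Itgam, the alpha chain of complement receptor 3, had signals of 2846.3 in the live coculture, 3675.2 with irradiated 1D8 cells and 2740.5 in the conditioned medium, against 1038.1 in the control, and at the brightest probe sets it was the 1 gene of the 101 that was 2-fold apart in the conditioned medium (2.64-fold higher). Itgb3, the other beta chain that binds Mfge8 with Itgav, had signals of 6.7, 26.9 and 97.6 on the treated arrays and 177.4 in the control, at least 4.0-fold lower in each coculture and 1.82-fold lower in the conditioned medium.

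Of 9 measured C1q partners and complement genes 1 was higher in each coculture. This was C1s1, a protease of the C1 complex that C1q joins, with signals of 250.9 in the live coculture and 299.6 with irradiated 1D8 cells, and 33.3 in the conditioned medium and 13.4 in the control, both under the floor. It was at least 5.66-fold and at least 6.76-fold higher in the cocultures. At the brightest probe sets none of 14 genes of the engulfment machinery and none of 15 phagosome genes reached the 2-fold threshold on a treated array. Some other probe sets passed it in a coculture. These were higher for Vav3 (log2 ratio up to 1.36) and Crk (1.17) and lower for Cybb (down to -1.17) and Atg7 (-1.18). Of 12 genes of the response to engulfed cells, Socs3, an inhibitor of cytokine signalling, was 2.39-fold and 3.72-fold higher in the live and the irradiated coculture and 1.77-fold higher in the conditioned medium. Abca1, a cholesterol exporter, was 1.76-fold higher with live and 2.75-fold higher with irradiated 1D8 cells and 1.23-fold higher in the conditioned medium, while its other probe set gave far larger log2 ratios of 4.07, 4.58 and 3.28. Nr1h3, the liver X receptor alpha gene, was at least 2.07-fold lower with live and 1.94-fold lower with irradiated 1D8 cells. The last list held 14 genes of don't-eat-me and find-me signals and their receptors, phosphatidylserine exposure and receptor shedding. Of these, S1pr1, a sphingosine 1-phosphate receptor gene, was 2.16-fold and 2.18-fold higher in the live and the irradiated coculture. Sirpa, the receptor of the don't-eat-me signal CD47, was 2.03-fold and 2.02-fold lower there. Other probe sets of Sirpa had log2 ratios from -0.44 to 0.11 in the cocultures, and Sirpa was not 2-fold lower in either with quantile normalization or with the mean over probe sets. Dimmer probe sets of other genes passed 2-fold in the conditioned medium too, such as those of Thbs1 (log2 ratio 1.92), Fn1, Abca1 and Adam10, a sheddase gene (2.18 and 2.42). The control had the lowest median signal of the arrays (38.7), and the part of this in ratios of dim probe sets was not tested.

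**Figure D4:**
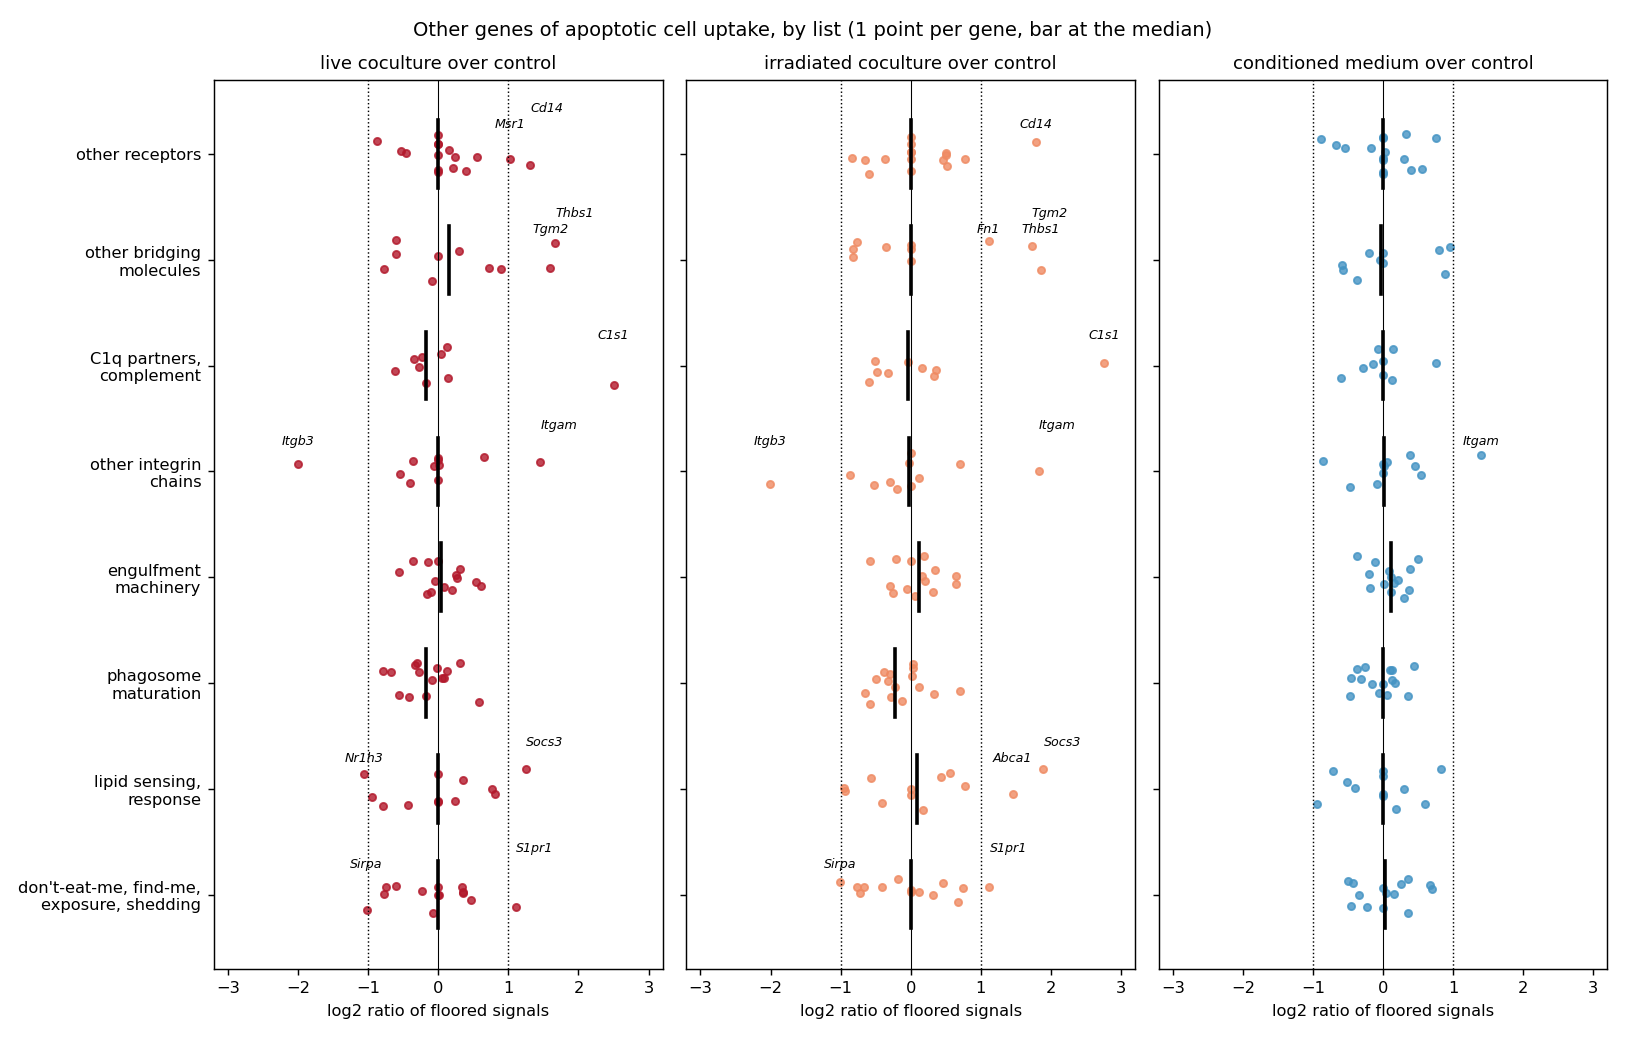
Log2 ratio to the control of 101 other genes of apoptotic cell uptake in 8 lists, 1 point per gene and a black bar at the median of each list, at its brightest probe set, with genes at least 2-fold apart named. Dotted lines mark 2-fold. Named genes lie mostly in the coculture panels, with Itgam the only one in the conditioned medium panel.

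Markers of other cells differed between the same arrays. Of 12 epithelial and mesothelial markers 6 were at least 2-fold higher with live 1D8 cells, 7 with irradiated 1D8 cells and 0 in the conditioned medium, and their summed signal was 2940.0, 3531.3 and 756.9 there, against 463.5 in the control. Krt19, a keratin gene, had signals of 569.7 and 767.4 in the live and the irradiated coculture, and of 22.2 in the conditioned medium and 8.6 in the control, both under the floor. Krt8 was 5.85-fold and 6.93-fold higher, Krt18 at least 6.07-fold and at least 6.88-fold higher and Cdh1, the E-cadherin gene, 4.91-fold and 5.82-fold higher in the live and the irradiated coculture. Upk3b and Wt1 were likewise under the floor in the conditioned medium and the control. Of 8 matrix and mesenchymal markers 2, Sparc and Cald1, were higher in each coculture and 0 in the conditioned medium, with a summed signal of 1099.4, 1075.5 and 646.4 on the treated arrays and 639.3 in the control. The part of tumour cell RNA in C1s1, Thbs1, Tgm2 and the other genes that were higher in the cocultures was not tested. Mfge8 was 3.71-fold lower and Gas6 2.05-fold lower in the conditioned medium. On that array 0 of the 12 epithelial markers were 2-fold higher and Cdh1 was 1.78-fold higher. Epcam had signals of 107.2 in the live coculture, 239.0 with irradiated 1D8 cells and 168.5 in the conditioned medium, against 103.8 in the control. Epcam was thus higher in the conditioned medium than in the live coculture, unlike Krt19, Krt8, Krt18 and Cdh1. Of the 12 markers, 2 were under the floor on all arrays. Whether tumour cell RNA took part in the lower signals of Mfge8 and Gas6 was not tested.

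The cell type named in the labels was checked against its markers. Of 11 dendritic cell markers all exceeded the floor in the control, 9 did so on all arrays, and their summed signal was 10499.1 in the live coculture, 10858.0 with irradiated 1D8 cells and 13906.5 in the conditioned medium, against 14748.1 in the control. Flt3 (45.5), Dpp4 (52.6), Cd209a (53.3) and Zbtb46 (56.1) lay just above the floor of 44.3 in the control, so passing it says little for them. Cd74 alone gave 8170.9 of the control sum. In the live coculture 1 of the 11 was 2-fold higher and 2 lower, in the irradiated coculture 2 higher and 1 lower, and for the conditioned medium 1 higher and 1 lower. H2-Ab1, an MHC class II chain, was 2.04-fold lower with live and 1.95-fold lower with irradiated 1D8 cells and 1.04-fold higher in the conditioned medium, and its 2 other probe sets had log2 ratios from -1.71 to -1.30 in the cocultures. Cd86, a costimulatory gene, was 1.57-fold, 2.28-fold and 1.49-fold higher on the treated arrays, while its other probe set gave log2 ratios of 0.01, -0.20 and -0.39. Ccr7, a homing receptor of mature dendritic cells, was 3.39-fold to 5.08-fold lower on the treated arrays, and Cd80, the gene of the sorted protein, was 2.35-fold to 4.42-fold higher. Of 9 measured macrophage markers 6 exceeded the floor on all arrays, among them Csf1r, Cd68, Adgre1 and Lyz2. Cd163 was under it on all arrays (1.6 to 25.0), and Vsig4 (36.1 to 74.4) and Siglec1 (42.5 to 91.4) were under it on some. The list does not settle which cells carried these transcripts. The summed signal of the 9 markers was 25313.0, 26417.1 and 27254.5 on the treated arrays and 27264.1 in the control, and none was 2-fold apart in the cocultures. Siglec1, an interferon-induced sialic acid receptor, was at least 2.06-fold higher in the conditioned medium. Of 7 measured neutrophil markers 3, 4 and 3 were lower on the treated arrays, with a summed signal of 810.1, 995.4 and 838.5 there and 1939.7 in the control. S100a9 (at least 4.84-fold) and Ngp (2.90-fold to 4.72-fold) were lower on all of them, Elane in both cocultures (at least 3.59-fold), and S100a8 in the conditioned medium (2.52-fold). Of 4 mast cell and basophil markers 2, 2 and 1 were lower, with sums of 148.3, 234.5 and 613.9 on the treated arrays and 1132.3 in the control. Cpa3 (8.74-fold and 6.44-fold) and Mcpt8 (at least 8.70-fold) were lower in the cocultures and Kit (at least 2.22-fold) in the conditioned medium. None of 4 lymphocyte and 3 pan-leukocyte markers was 2-fold apart. Whether fewer cells of these types took part in the lower signals of Mfge8 and Gas6 was not tested.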

How the data were processed

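RNA of sorted BMDC was measured on 4 Affymetrix mouse expression arrays, 1 per condition, after 1 round of amplification from an oligo-dT primer, per the labels' protocols. The deposited values are linear intensities by probe set, computed by the authors in GCOS 1.4 with MAS5, per the submitters' processing notes. The mean intensity after trimming 2% of probe sets at each end was 150.0 on all 4 arrays, so the arrays had been scaled alike. The scaling target is not given in the sources used here, and no further scaling was applied. Because MAS5 subtracts the mismatch probes, dim probe sets give noisy ratios.

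Of 45101 probe sets 64 controls were left out, and 34945 of the others had 1 gene in the array annotation, 932 several and 9160 were not listed. For each gene the probe set whose log2(signal + 1) was highest on average was used. The floor was 44.3 and the threshold 2-fold. Between 58.8% and 62.5% of the 18193 genes exceeded the floor on an array. Precision is limited by there being 4 arrays. The alternatives were floors of 12.9 and 155.6 (25th and 75th percentile), quantile normalization, median centring, averaging a gene's probe sets, and a 3-fold threshold. Steps ran in Python 3.11.15 with numpy 2.4.6 and pandas 2.3.3 and were tested on simulated data.

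The genes and lists were chosen with earlier results of these data known. Named are all 10 genes, up to 4 genes of each list with the largest differences among those at least 2-fold apart from the control, and the 3 nearest genes of the 3 members with the widest range. Genes named outside this rule, chosen after their values were seen, are Tyro3, Pros1, Anxa1, Anxa5, Vav3, Crk, Cybb, Atg7, Adam10, Upk3b, Wt1, Epcam, Flt3, Dpp4, Cd209a, Zbtb46, Cd74, Csf1r, Cd68, Adgre1, Lyz2, Cd163 and Vsig4.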

Additional observations from a re-analysis of the deposited data

How the results depend on the processing

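Of 300 recomputed log2 ratios of the 10 genes, 286 moved by less than the SD among a gene's probe sets and 14 by more, and none of the ratios at least 2-fold apart changed sign. Many of these could not move. The lower floor left all its 60 ratios unchanged because every gene exceeded 44.3 on all arrays. The floor of 155.6 could move only Gas6, at 119.8 in the irradiated coculture. The mean could not move Mfge8, Mertk, Stab1, C1qa and C1qc, with 1 probe set each. Such ratios say nothing about stability. Mfge8 was at least 3-fold lower on all 3 treated arrays with quantile normalization and with median centring. The alternatives of floor and probe set could not move it, since it has 1 probe set and all its signals exceed 155.6. Gas6 was at least 2-fold lower under 4 of them. It was 2-fold lower in the irradiated coculture only with the mean over probe sets, which for Gas6 and Axl takes in a probe set under the floor and so shrinks their ratios by construction. With that mean 1 gene was lower in the live coculture, and in the conditioned medium 1 was lower and 0 higher (Gas6 log2 ratio -0.84, -1.17 and -0.52, Axl 0.57 in the conditioned medium). With median centring Itgb5 joined the lower genes in the irradiated coculture, 3 in all. At a 3-fold threshold 1 gene was lower and 0 higher in the conditioned medium, where 0.203% of all genes were lower and 0.335% higher. With the mean 1.38% of all genes were lower in the live coculture, and in the conditioned medium 0.797% were lower and 1.73% higher. Gas6 alone had been apart between the irradiated coculture and the conditioned medium, and 0 genes were with the mean, the higher floor or the 3-fold threshold (2.22%, 1.45% and 0.879% of all genes).

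For the 101 other genes a 3-fold threshold left 4 (3 higher, 1 lower) in the live coculture, 7 (1 lower) with irradiated cells and 0 in the conditioned medium, where 1.49%, 1.79% and 0.539% of all genes passed. The higher floor left 1 lower in each coculture (Sirpa), and ended the calls of Itgb3, C1s1 and, with live cells, Nr1h3, where 1.34% and 1.28% of all genes were lower. The mean over probe sets left 1 lower with irradiated cells (1.45% of all genes) and ended Sirpa in both cocultures, as did quantile normalization. With median centring 5 were lower in the live coculture, where Msr1 and S1pr1 were lost and 6 were higher, and 4 were lower with irradiated cells (3.07% and 2.77% of all genes lower). For the conditioned medium 3 were apart, 2 of them lower (3.89% of all genes apart). In the conditioned medium the lower floor gave 5 (3 higher, 2 lower), quantile normalization 4 (2 higher, 2 lower) and the mean over probe sets 5, all higher, against 9.28%, 3.43% and 2.52% of all genes apart. The cause was not tested. Median centring put the median of genes above the floor at log2 ratios of -0.17, -0.12 and -0.11 in the live coculture, the irradiated coculture and the conditioned medium, against -0.04, -0.05 and 0.00 as deposited. No paired analysis was possible because each condition has 1 array. Leaving out a replicate was not possible for the same reason.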
